A study of Mus musculus with 6 samples.

Results

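The genes described here build and run the DNA replication fork. They comprise 42 genes for origin licensing, the replicative helicase, the polymerases, the sliding clamp, single-strand binding and fragment joining, and nucleotide supply. They were chosen by name, with earlier results of these data known, so their counts beside those of all genes are descriptions. All 42 were measured among the 19938 genes with a probe set of exactly 1 gene symbol. Pcna, Rpa3 and Tk1 had a pair of such probe sets each, and the brighter of the pair stands for the gene.

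The arrays compare 3 samples of L1CAM cells with 3 samples of control cells. Both are lung endothelial cells (lECs) of C57BL/6 background, grown for 4 days to confluence in medium with 20% serum and endothelial growth supplement. The L1CAM cells carry a stably transfected hygromycin vector with full-length mouse L1CAM, a transmembrane adhesion molecule best known from neurons, and the control cells carry the same vector empty. The labels tell apart 1 transfectant per group and do not say whether it was a pool or a clone, so differences between transfectants and effects of L1CAM cannot be told apart. The replicates are labelled as biological, and p-values measure the spread between these cultures. Values are log2 expression values, and every difference is L1CAM minus control, so that negative values mean a lower signal in L1CAM cells. L1cam itself read 10.49, 10.60 and 10.73 in L1CAM replicates 1, 2 and 3, against 6.50, 6.77 and 7.31 in control replicates 1, 2 and 3, with every L1CAM array above every control array. All 12 endothelial markers, among them Cdh5 and Pecam1, lay above the array median on every array, as did 10822 of the 19938 genes. Of the 12, Cldn5 was called lower, and the median difference was -0.08. In 9 of the 12 all 3 L1CAM arrays lay below all 3 control arrays, against 16.0% of all genes. Of 7 measured leukocyte markers, Ptprc, Itgam, Adgre1 and Csf1r lay below the array median on every array, and Cd68, Lyz2 and Cd3e lay above it on every array. None of the 7 was called in either direction (0 at an unadjusted p under 0.05 by limma). Of 8 epithelial markers 2, Sftpb and Krt8, lay above the array median on every array. Of 8 fibroblast and mural markers 4 did: Col1a1, Col1a2, Pdgfra and Myh11. No marker of these lists was called (0 epithelial and 1 fibroblast and mural at an unadjusted p under 0.05).

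A cell copies its genome once per division. In G1 phase the origin recognition complex (ORC), with CDC6 and CDT1, loads the ring of MCM2 to MCM7 around DNA, and geminin, encoded by Gmnn, blocks further loading after S phase begins. CDC45 and the GINS complex join the ring to form the active CMG helicase, primase and the polymerases copy the strands, and the clamp PCNA, loaded by RFC, holds polymerases on DNA. Many of these genes are transcribed at the G1/S transition under E2F transcription factors and are low in resting cells, whereas ORC2 is present throughout the cycle.

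Of the 42 replication genes 20 were lower in L1CAM cells and 22 did not pass the test. Those that fell were 4 of 5 single-strand binding and joining genes, 3 of 4 nucleotide supply genes, 4 of 6 MCM genes, 4 of 9 polymerase genes, 2 of 6 CMG assembly genes, 2 of 6 clamp and loader genes and 1 of 6 licensing genes. At an unadjusted p under 0.05 by limma these counts were 5, 4, 6, 7, 5, 6 and 4, in the same order. Differences between roles were not tested. By limma's moderated test, with Benjamini-Hochberg adjustment over all genes and a threshold of 0.05, 20 fell and 0 rose (37 and 0 at an unadjusted p under 0.05). Among all genes tested, 8.19% were called lower and 6.85% higher. Over the 19938 genes, 2806 were lower and 2982 higher at an unadjusted p under 0.05 by limma. The median difference of the 42 genes was -0.78, beside 0.02 over all genes tested. The difference was negative in 41 genes, with Orc2 the exception, and ranged from -1.55 for Cdc45 to 0.08 for Orc2. In 33 genes all 3 L1CAM arrays lay below all 3 control arrays, a separation seen in 16.0% of all genes. Fewer cycling cells in a culture and less RNA per cycling cell cannot be told apart in these bulk samples.

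The L1CAM arrays were not alike. The median over the 42 genes lay 0.23 below the control mean in L1CAM replicate 1 (-0.23), but at -1.07 in replicate 2 and -1.06 in replicate 3. In 41 of the 42 genes replicate 1 read above both other L1CAM arrays, while replicates 2 and 3 differed from each other by a median of 0.07. Replicate 1 was below all 3 control arrays in 33 genes, a position that 31.5% of all genes took. It was within the control range in 6 genes (Orc2, Mcm3, Mcm5, Pola1, Pold1 and Rfc4) and above all controls in 3 (Orc6, Gins4 and Pold2), where 34.0% of all genes lay. Replicates 2 and 3 were both below all controls in 41 genes, against 22.6% of all genes. Over the 40 genes where replicates 2 and 3 averaged below -0.3, the difference in replicate 1 was a median 21.2% of theirs. Across the 42 genes the differences in replicates 2 and 3 correlated at r = 0.96, and those of replicate 1 with the mean of the other pair at r = 0.75. These are descriptions across genes that share the same control arrays.

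**Figure D1:**
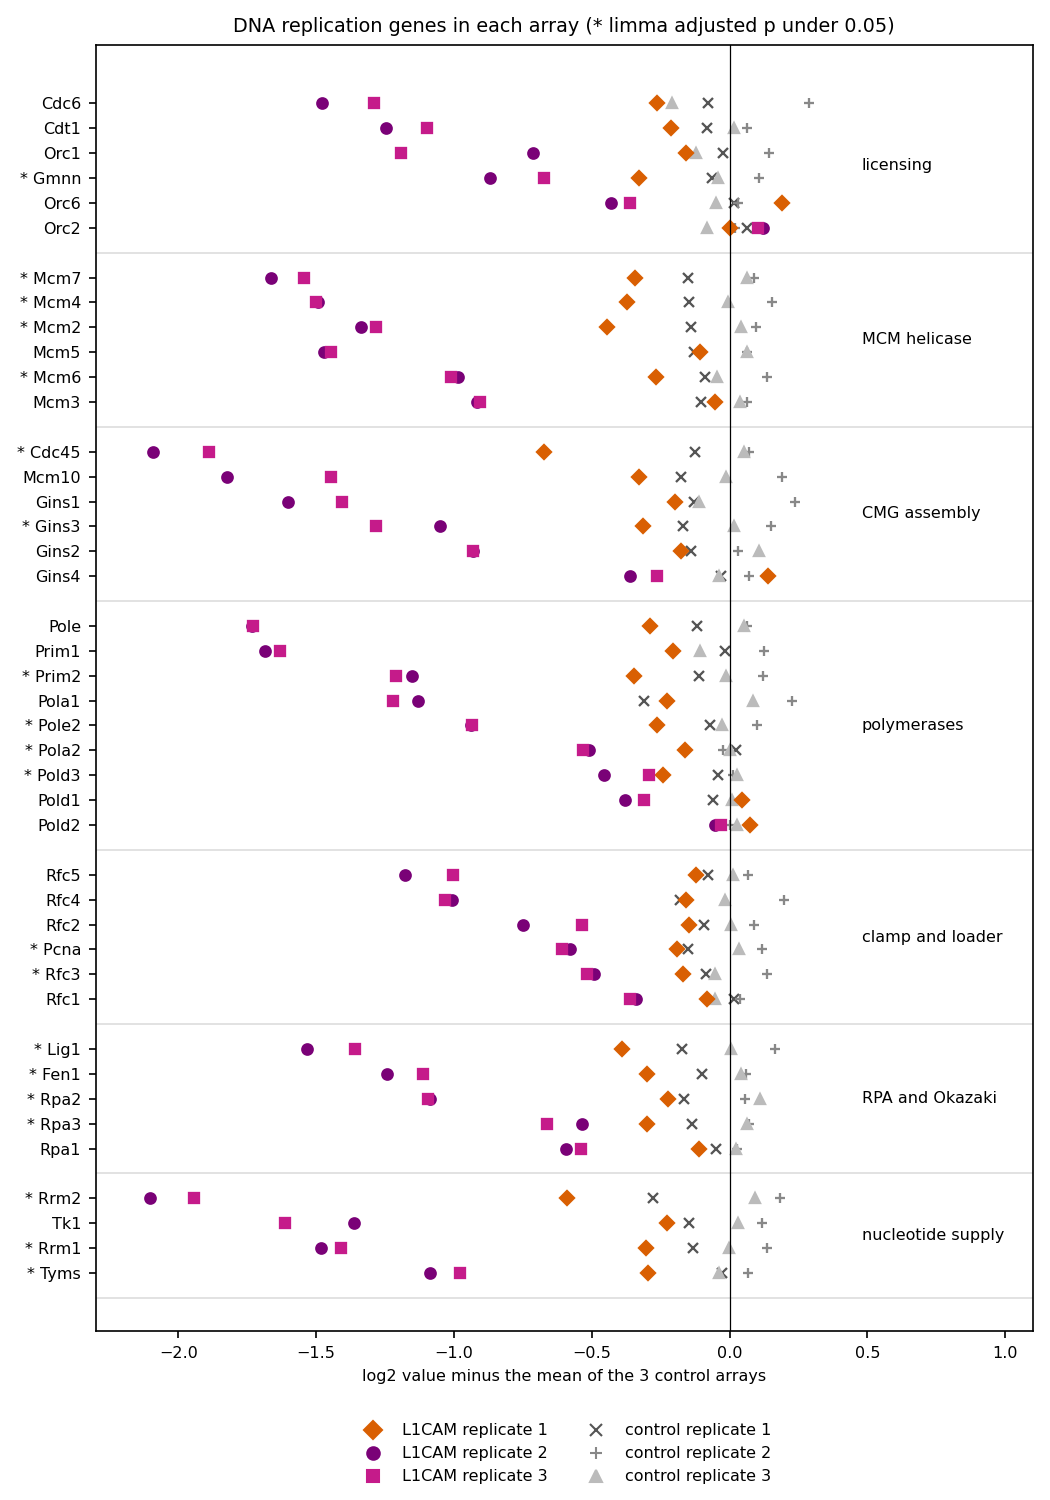
Each row is 1 gene and each point 1 array, plotted as its log2 value minus the mean of the 3 control arrays on the horizontal axis; orange diamonds are L1CAM replicate 1, purple and pink points L1CAM replicates 2 and 3, and grey marks the controls. Replicates 2 and 3 lie left of all controls in 41 of 42 rows, and replicate 1 lies between them and the controls or among the controls in most rows.

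**Figure D2:**
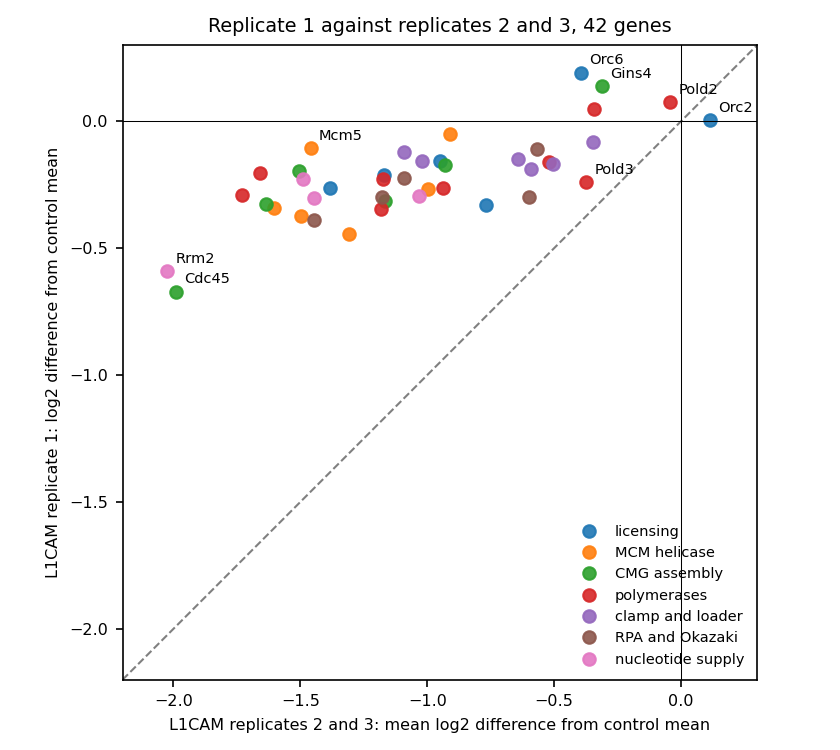
Each point is 1 of the 42 genes, with the mean log2 difference of L1CAM replicates 2 and 3 from the control mean on the horizontal axis and that of L1CAM replicate 1 on the vertical axis, coloured by role; the dashed line marks equal differences. All points but Orc2 lie above the line, and Cdc45 and Rrm2 are lowest on both axes.

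How many genes were called varied with the array left out. Without L1CAM replicate 1, 40 genes were called lower, against 12.9% of all genes, and the median difference was -1.06. Only Orc2 and Pold2 were not called in that fit. L1CAM replicate 1 was already known to differ from the other L1CAM arrays. P-values without it, here and below, therefore describe the remaining arrays and give no added support. With replicate 1 kept, the count was 0 without L1CAM replicate 2 or without L1CAM replicate 3 (34 genes each at an unadjusted p under 0.05), against 3.73% and 3.43% of all genes. It was 3 without control replicate 1 (Gmnn, Pold3 and Rpa3), against 4.80% of all genes. It was 0 without control replicate 2 or control replicate 3 (35 each at an unadjusted p under 0.05), against 2.90% and 2.96% of all genes. No gene kept its call in all 6 of these fits. The median adjusted p of the 42 genes was 0.0515, next to the threshold. Several uncalled genes had larger differences than called ones. Pole, at -1.25 with SE 0.35, had an adjusted p of 0.052, and Pold3, at -0.33 with SE 0.07, one of 0.0196.

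**Figure D3:**
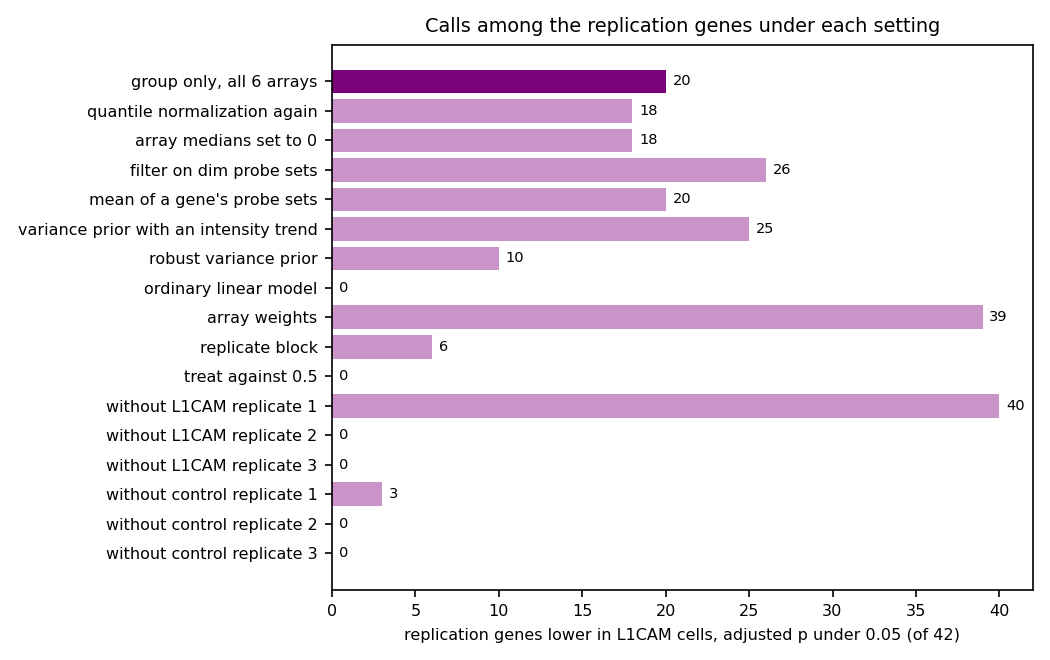
Bars give, for the fit on all 6 arrays (dark) and for each alternative (light), the number of the 42 replication genes lower in L1CAM cells at an adjusted p under 0.05. The count is 20 on all 6 arrays, 40 without L1CAM replicate 1, and 0 to 3 when any other array is left out.

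The promoters of these genes were read for the E2F site because E2F factors are known to drive the family. RefSeq sequences of build GRCm38.p6 were found for 34 of the 42 genes, and the 250 bases before each start were searched on both strands. The E2F site was searched as TTCCCGC and as its variants: the first variant is TTCGCGC, another variant is TTGCCGC, and the last variant is TTGGCGC. Overlapping matches were each counted. Such a site stood before 14 of the 34 genes (41.2%), against 12.3% of the 15614 measured genes with a sequence and 7.89% of all 32851 promoters. A gene with several starts was counted if any of them held a site. The 40 promoters of the 34 genes have a median GC content of 57.4% in this window, against 56.8% for promoters of measured genes. The CCAAT box, searched as CCAAT, stood before 22 of the 34 (64.7%, against 38.8% of measured genes and 33.8% of all promoters), and 1 promoter of the set had it overlapping an E2F site. The cell cycle homology region, searched as TTTGAA and, as a variant, TTCGAA, stood before 7 (20.6%, against 17.3% and 17.1%). The GC box, GGGCGG, stood before 24 (70.6%, against 49.3% and 32.7%). Genes with an E2F site had a median difference of -0.88 (9 of 14 called lower), and genes without one -0.67 (8 of 20 called lower), with ranges of -1.55 to -0.39 and -1.55 to 0.08. The difference between these groups was not tested. Mcm4, Gins1, Gins2, Gins4, Gmnn, Prim2, Pole and Rfc2 had no sequence and are in neither group. A match is a description of the letters in this window, and binding was not measured.

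The promoters with the most E2F matches, ties taken alphabetically, are printed 5′ to 3′ in the direction of the gene, with the E2F sites in capitals. Mcm6 (chr1:128359719-128359838, minus strand) holds 4 matches that overlap in pairs, Mcm5 (chr8:75109296-75109415, plus strand) and Pola1 (chrX:93632238-93632357, minus strand) hold 3 each, and Cdc6 (chr11:98907956-98908075, plus strand), Fen1 (chr19:10203922-10204041, minus strand) and Gins3 (chr8:95633439-95633558, plus strand) hold 1 each. In Mcm6 the matches begin 109 bases before the start and in Fen1 the match begins 34 bases before it.
Mcm6: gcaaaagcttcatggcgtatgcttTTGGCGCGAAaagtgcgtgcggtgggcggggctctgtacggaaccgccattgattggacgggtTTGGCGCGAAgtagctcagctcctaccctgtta
Mcm5: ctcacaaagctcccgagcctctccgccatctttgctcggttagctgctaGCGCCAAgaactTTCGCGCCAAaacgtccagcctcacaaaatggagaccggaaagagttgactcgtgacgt
Pola1: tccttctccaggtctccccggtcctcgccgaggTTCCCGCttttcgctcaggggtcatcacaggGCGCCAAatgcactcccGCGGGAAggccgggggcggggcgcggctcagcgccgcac
Cdc6: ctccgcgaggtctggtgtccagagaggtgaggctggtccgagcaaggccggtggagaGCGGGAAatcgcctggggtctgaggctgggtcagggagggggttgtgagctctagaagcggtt
Fen1: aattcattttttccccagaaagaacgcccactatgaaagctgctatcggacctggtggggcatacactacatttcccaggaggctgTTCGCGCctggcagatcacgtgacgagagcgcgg
Gins3: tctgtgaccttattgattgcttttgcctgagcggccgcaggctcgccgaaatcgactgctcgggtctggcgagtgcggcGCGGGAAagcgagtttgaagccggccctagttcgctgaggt

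Licensing genes differed among themselves. Cdc6 and Cdt1, the loaders of the MCM ring, showed large differences that missed the threshold, while Orc2 differed little. Cdc6 read 7.952, 6.736 and 6.924 in L1CAM replicates 1, 2 and 3, against 8.136, 8.502 and 8.004 in control replicates 1, 2 and 3, a difference of -1.01 (SE 0.30, adjusted p = 0.0598). Cdt1 read 9.59, 8.55 and 8.70 in L1CAM cells, against 9.72, 9.86 and 9.82 in control cells, a difference of -0.85 (SE 0.24, adjusted p = 0.0517). In both genes every L1CAM array was below every control array, replicate 1 by a small margin. Without L1CAM replicate 1 the 2 genes were called, at -1.38 and -1.17 (adjusted p = 0.000244 and 3.1e-05).

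Of the ORC subunits, Orc2 read 9.59, 9.71 and 9.70 in L1CAM cells, against 9.65, 9.61 and 9.51 in control cells (0.08, SE 0.06, adjusted p = 0.489). Orc6 read 10.19, 9.57 and 9.64 in L1CAM cells, against 10.01, 10.03 and 9.95 in control cells (-0.20, SE 0.15, adjusted p = 0.444). The L1CAM arrays of Orc6 lay on both sides of the controls, with replicate 1 highest of all 6, and the gene was called at -0.40 without it (adjusted p = 0.00192). Orc1, the subunit best known for cycling, measured -0.69 (SE 0.23, adjusted p = 0.0855), with 1 of 6 arrays above the array median. The subunits Orc3, Orc4 and Orc5, from a list of related genes, measured 0.06, 0.04 and 0.10 (adjusted p = 0.601, 0.756 and 0.405), close to Orc2. The licensing inhibitor Gmnn was the only one of the 6 licensing genes called: it fell by 0.62 (SE 0.13, adjusted p = 0.0192). Gmnn lay below the array median on all 6 arrays. Whether its signal stood clear of background was not tested, so the size of its difference is uncertain.

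The 6 subunits of the MCM ring had a median difference of -1.01, and Mcm2, Mcm4, Mcm6 and Mcm7 fell. Mcm7 read 10.02, 8.70 and 8.82 in L1CAM cells, against 10.21, 10.46 and 10.43 in control cells, a difference of -1.18 (SE 0.31, adjusted p = 0.0428), 2.27-fold lower. Mcm4 read 9.61, 8.49 and 8.49 in L1CAM cells, against 9.84, 10.14 and 9.98 in control cells, a difference of -1.12 (SE 0.28, adjusted p = 0.0359). In both, replicates 2 and 3 were more than 1 unit below any control, and replicate 1 was closest to the controls. Mcm6 read 9.67, 8.95 and 8.93 in L1CAM cells, against 9.85, 10.07 and 9.89 in control cells, and fell by 0.75 (SE 0.19, adjusted p = 0.0358). Mcm3 read 9.86, 8.99 and 9.00 in L1CAM cells, against 9.81, 9.97 and 9.95 in control cells, a difference of -0.63 (SE 0.22, adjusted p = 0.0965). In Mcm3 replicate 1 lay inside the control range, as it did in Mcm5 (-1.01, adjusted p = 0.0842). Mcm2 fell by 1.02 (SE 0.22, adjusted p = 0.0219), and replicate 1 of Mcm2 was 0.44 below the control mean (-0.44), the widest gap of that array in the ring. All 6 subunits were called without L1CAM replicate 1, between -1.60 for Mcm7 and -0.91 for Mcm3.

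Among the factors that turn the loaded ring into a working helicase, Cdc45 changed most. Cdc45, the factor that completes the CMG with GINS, read 9.45, 8.03 and 8.23 in L1CAM cells, against 9.99, 10.19 and 10.17 in control cells. It fell by 1.55 (SE 0.33, adjusted p = 0.0201), 2.93-fold lower, the largest difference of the 42 genes, and replicate 1 was 0.67 below the control mean (-0.67). Mcm10, needed to activate the helicase, read 8.21, 6.71 and 7.09 in L1CAM cells, against 8.36, 8.73 and 8.52 in control cells (-1.20, SE 0.34, adjusted p = 0.0513). Its L1CAM arrays were all below the controls, and the spread among them was wider than in the controls.

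The 4 GINS subunits, which form 1 complex, did not measure alike. Gins3 fell by 0.88 (SE 0.23, adjusted p = 0.0384), and Gins1 measured -1.07 (SE 0.33, adjusted p = 0.0701). Gins1 was dim in L1CAM replicates 2 and 3, at 5.63 and 5.83, below the array medians, so the size of its difference is uncertain. Gins2 read 8.79, 8.03 and 8.04 in L1CAM cells, against 8.83, 9.00 and 9.07 in control cells (-0.68, SE 0.20, adjusted p = 0.0561). Gins4 read 10.39, 9.89 and 9.99 in L1CAM cells, against 10.21, 10.32 and 10.21 in control cells (-0.16, SE 0.12, adjusted p = 0.45). In Gins4 replicate 1 was the highest of the 6 arrays, and replicates 2 and 3 were below all controls. Without L1CAM replicate 1 all 4 subunits were called, at -1.50 for Gins1, -0.93 for Gins2, -1.17 for Gins3 and -0.31 for Gins4. Differences between these subunits were not tested.

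Polymerase genes passed the threshold in part. Of 9 measured, 4 fell: Prim2, Pole2, Pola2 and Pold3. At an unadjusted p under 0.05 by limma 7 were lower, and 8 were called without L1CAM replicate 1. Differences between these genes were not tested. Pole, the catalytic subunit of the leading-strand polymerase epsilon, read 9.10, 7.66 and 7.67 in L1CAM cells, against 9.28, 9.46 and 9.45 in control cells (-1.25, SE 0.35, adjusted p = 0.052). Prim1, the catalytic primase subunit, read 9.08, 7.60 and 7.66 in L1CAM cells, against 9.27, 9.41 and 9.18 in control cells (-1.17, SE 0.36, adjusted p = 0.0658). Replicates 2 and 3 of both genes were nearly equal and far below the controls, while replicate 1 was just below them. Without L1CAM replicate 1, Pole was called at -1.73 (adjusted p = 9.75e-06), the smallest adjusted p of the set, and Prim1 at -1.66.

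The polymerase delta subunits stood nearer to 0. Pold1, its catalytic subunit, read 8.66, 8.23 and 8.31 in L1CAM cells, against 8.55, 8.67 and 8.62 in control cells (-0.21, SE 0.11, adjusted p = 0.249). Pold2, an accessory subunit, read 11.03, 10.90 and 10.92 in L1CAM cells, against 10.93, 10.96 and 10.98 in control cells, a difference that rounds to 0 (SE 0.06, adjusted p = 0.98). Pold2 showed replicate 1 above and replicates 2 and 3 slightly below every control. Pold3, another accessory subunit, fell by 0.33 (SE 0.07), with all 3 L1CAM arrays at 9.72 to 9.93, against 10.14 to 10.20 in the controls. Prim2, the large primase subunit, fell by 0.90 (SE 0.21, adjusted p = 0.0295). Pole2, an accessory subunit of polymerase epsilon, fell by 0.71 (SE 0.17, adjusted p = 0.0327), and Pola2, one of polymerase alpha, fell by 0.40 (SE 0.10, adjusted p = 0.0355). Pola1, the catalytic subunit of polymerase alpha on chromosome X, measured -0.86 (SE 0.26, adjusted p = 0.0654), with replicate 1 inside the control range. The small subunits Pole3 and Pole4, from the list of related genes, measured -0.08 and 0.05 (adjusted p = 0.519 and 0.631).

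The clamp and its loader showed smaller differences, with a median of -0.47 over 6 genes, and Pcna and Rfc3 fell. Pcna, the sliding clamp, fell by 0.46 (SE 0.12, adjusted p = 0.0441), 1.37-fold lower, and its L1CAM arrays at 11.37 to 11.79 lay below the controls at 11.83 to 12.10. A further Pcna probe set, numbered among those of chromosome 19 although the gene lies on chromosome 2, measured -0.47. Rfc5 read 10.64, 9.59 and 9.76 in L1CAM cells, against 10.68, 10.83 and 10.78 in control cells (-0.77, SE 0.24, adjusted p = 0.0747). Rfc4 read 10.49, 9.64 and 9.61 in L1CAM cells, against 10.46, 10.84 and 10.63 in control cells (-0.73, SE 0.23, adjusted p = 0.0701). Both are small loader subunits, and in both replicate 1 lay close to the control mean (-0.12 in Rfc5 and -0.16 in Rfc4). Rfc3 read 9.10, 8.77 and 8.75 in L1CAM cells, against 9.18, 9.40 and 9.21 in control cells, and fell by 0.39 (SE 0.11, adjusted p = 0.0466). Rfc1, the large subunit, read 9.40, 9.15 and 9.13 in L1CAM cells, against 9.50, 9.52 and 9.43 in control cells (-0.26, SE 0.08, adjusted p = 0.0772). The L1CAM arrays of Rfc1 and Rfc3 lay below all controls, and Rfc2 measured -0.48 (SE 0.14, adjusted p = 0.0609). All 6 genes were called without L1CAM replicate 1, from -1.09 for Rfc5 to -0.35 for Rfc1.

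Of the single-strand binding and fragment joining genes, 4 of 5 fell. Lig1, the ligase that seals lagging-strand fragments, read 8.74, 7.60 and 7.77 in L1CAM cells, against 8.96, 9.30 and 9.14 in control cells, a difference of -1.09 (SE 0.27, adjusted p = 0.0346). Fen1, the flap endonuclease that trims those fragments, read 8.65, 7.71 and 7.84 in L1CAM cells, against 8.85, 9.01 and 8.99 in control cells (-0.88, SE 0.22, adjusted p = 0.0354). The groups did not overlap in either gene. Rpa3 read 8.87, 8.63 and 8.50 in L1CAM cells, against 9.03, 9.24 and 9.23 in control cells, and fell by 0.50 (SE 0.10, adjusted p = 0.019), the smallest adjusted p of the 42 genes on all arrays. Rpa1 read 10.29, 9.81 and 9.87 in L1CAM cells, against 10.36, 10.43 and 10.43 in control cells (-0.41, SE 0.12, adjusted p = 0.059). Rpa1, Rpa2 and Rpa3 encode the trimer that coats single-stranded DNA, and Rpa2 fell by 0.80 (SE 0.22, adjusted p = 0.0499). In Rpa3 replicate 1 was 0.30 below the control mean (-0.30), against a mean of -0.60 in replicates 2 and 3. A further Rpa3 probe set, numbered among those of chromosome 1 although the gene lies on chromosome 6, measured -0.35.

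All 4 nucleotide supply genes had differences of -1.55 to -0.79, and Rrm1, Rrm2 and Tyms fell. Rrm2, the cell-cycle-regulated subunit of ribonucleotide reductase, read 10.24, 8.72 and 8.88 in L1CAM cells, against 10.55, 11.01 and 10.92 in control cells, a difference of -1.55 (SE 0.36, adjusted p = 0.0295), 2.92-fold lower. Rrm1, its partner subunit, read 11.32, 10.14 and 10.21 in L1CAM cells, against 11.49, 11.76 and 11.62 in control cells (-1.07, SE 0.29, adjusted p = 0.0441). Tyms, which makes thymidylate, read 9.23, 8.44 and 8.55 in L1CAM cells, against 9.50, 9.60 and 9.49 in control cells (-0.79, SE 0.19, adjusted p = 0.0304). The groups did not overlap in these genes, and replicate 1 was the nearest to the controls in each. Tk1, the salvage thymidine kinase, read 9.10, 7.97 and 7.72 in L1CAM cells, against 9.18, 9.45 and 9.36 in control cells (-1.07, SE 0.32, adjusted p = 0.0613). The Tk1 probe set used is numbered among those of chromosome 8, although the gene lies on chromosome 11, and its target was not checked. The other Tk1 probe set, numbered among those of chromosome 11, measured -1.39. It read 8.80, 7.11 and 7.17 in L1CAM cells, against 8.98, 9.04 and 9.25 in control cells.

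Further replication genes, from lists of related genes, were lower in part. Of 32 other origin and fork genes 11 fell (34.4%, against 8.19% of all genes) and 1 rose, with a median of -0.46. The count that fell was 20 without L1CAM replicate 1 and 0 or 1 without any other array (17 or 18 at an unadjusted p under 0.05). Ticrr, a factor that brings CDC45 to origins, fell by 1.40 (SE 0.34, adjusted p = 0.0328). Wdhd1, which links the helicase to polymerase alpha, fell by 1.40 (SE 0.34, adjusted p = 0.0342). Dtl, the adaptor of the ubiquitin ligase that destroys CDT1, fell by 1.39 (SE 0.33, adjusted p = 0.0291). Each was called without L1CAM replicate 1 and in no other fit with an array left out. The gene that rose was Mtbp, which in human cells acts with TICRR at origins. Mtbp read 9.20, 9.23 and 9.26 in L1CAM cells, against 8.49, 8.42 and 8.17 in control cells, a difference of 0.87 (SE 0.09, adjusted p = 0.00125). In Mtbp replicate 1 lay beside the other L1CAM arrays, and the call held in all 6 fits with an array left out.

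Genes that rebuild chromatin behind the fork fell in 9 of 12 cases and rose in 0 (10 and 0 at an unadjusted p under 0.05), with a median of -0.88. The share that fell was 75%, against 8.19% of all genes. The count was 10 without L1CAM replicate 1, 2 when control replicate 1 was dropped and 0 for each other array (10 each at an unadjusted p under 0.05). Asf1b, a histone chaperone, fell by 1.45 (SE 0.37, adjusted p = 0.0392). Uhrf1, which recruits DNMT1 to newly copied DNA, fell by 1.22 (SE 0.30, adjusted p = 0.0336). Dnmt1, the maintenance DNA methyltransferase, fell by 1.07 (SE 0.27, adjusted p = 0.035). The paralog Asf1a measured 0.00 (-0.0037, adjusted p = 0.978).

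Other nucleotide supply genes went both ways: of 15 measured, 1 fell and 4 rose, with a median of 0.10. The share that fell, 6.67%, was near the 8.19% of all genes, and 6.85% of all genes rose. Dck, the deoxycytidine kinase, fell by 0.98 (SE 0.26, adjusted p = 0.0439). Shmt1, an enzyme of folate metabolism, rose by 0.39 (SE 0.10, adjusted p = 0.0353) and Dctd, the dCMP deaminase, by 0.34 (SE 0.09, adjusted p = 0.0427). Samhd1, which degrades deoxynucleotides, rose by 0.32 (SE 0.08, adjusted p = 0.0355), and Rrm2b, the p53-inducible reductase subunit, by 0.30 (SE 0.07, adjusted p = 0.0285), both named after their values were seen. Rrm2b read 8.43, 8.64 and 8.51 in L1CAM cells, against 8.27, 8.26 and 8.17 in control cells, while its paralog Rrm2 was lower in L1CAM cells. Each of these 5 calls was lost in at least 4 of the 6 fits with an array left out.

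Set beside the mitosis genes, the replication genes had the same order of arrays. A list of 23 mitosis genes had medians of -0.51, -1.76 and -1.73 in L1CAM replicates 1, 2 and 3, against -0.23, -1.07 and -1.06 for the 42 replication genes, each relative to the same control arrays. All 23 mitosis genes were called lower on the 6 arrays, and 20 of the 42 replication genes, against 8.19% of all genes. The mitosis calls also varied with the array left out: dropping L1CAM replicate 1 kept 23 of them, dropping control replicate 1 left 8, dropping L1CAM replicate 3 left 1, and dropping any of the other three arrays left 0 (23 each at an unadjusted p under 0.05). The difference between the lists was not tested.

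**Figure D4:**
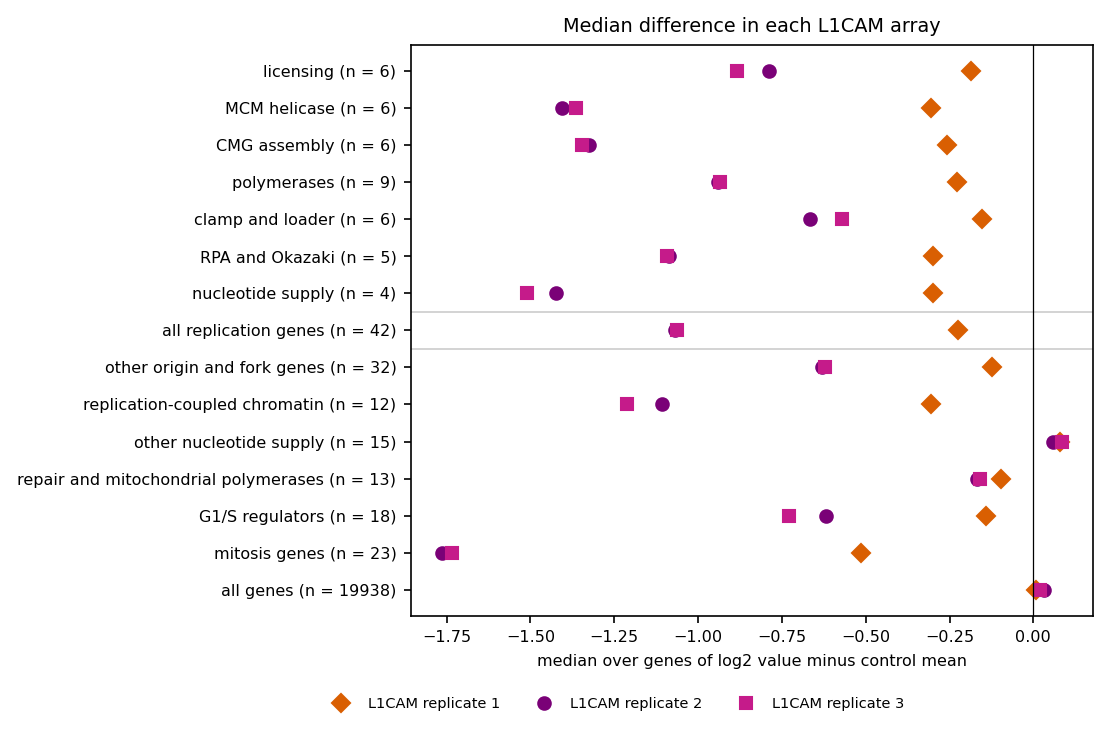
For each role, for the 42 genes together, for related lists and for all genes, points give the median over genes of the log2 value minus the control mean in L1CAM replicates 1 (orange), 2 (purple) and 3 (pink). Replicates 2 and 3 lie between -1.51 and -0.57 in every role and replicate 1 between -0.31 and -0.15, with the medians of all genes near 0.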

How the data were processed

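Total RNA from 6 cultures was hybridised to Affymetrix arrays. The authors deposited log2 expression for each probe set. It was computed by RMA (Affymetrix Expression Console, version 1.1, as named in the submitters' processing notes), which corrects background, normalizes between arrays and summarises probes, and which compresses the differences of dim probe sets. The design's genome build is not given in the sources used here. Of 35512 probe sets, 21789 had 1 gene symbol in the platform annotation, giving 19938 genes with the brightest probe set of each. Array medians were 6.55 to 6.58. With 3 arrays per group, precision is limited by their number.

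L1CAM minus control was fitted by limma 3.58.1 (R 4.3.3), using lmFit and eBayes with group as the only term, and the script was tested on simulated data. SE is the moderated standard error. The members and lists were chosen with earlier results of these data known. Values in every array are given for the genes with the 2 largest and 2 smallest absolute differences of each role. Of each related list, the 3 called genes with the largest differences and those called against the list's main direction were named by rule. Orc3, Orc4, Orc5, Pole3, Pole4, Asf1a and Cdc25a were named in addition, after their values were seen. Python 3.11.15 made the tables, promoter searches and figures. Alternatives were other normalizations, filters, probe set rules, variance priors, array weights, the replicate block, and leaving out each array.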

Additional observations from a re-analysis of the deposited data

How the results depend on the processing

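The direction of the median difference held in every setting, from -1.06 to -0.65 when any array was left out. Counts moved more. With array weights, 5191 genes and 39 replication genes were called (13.2% of all genes lower). L1CAM replicate 1 had the lowest weight there, 0.3233, against 0.9982 to 1.819 in the other arrays. An ordinary linear model called 581 genes, 0 replication genes (18 lower at an unadjusted p under 0.05) and 1 of the other replication genes, which was higher. A test against a difference of 0.5 called 152 genes, 0 replication genes (11 at an unadjusted p under 0.05) and 0 other replication genes. A robust variance prior called 10 replication genes (7.59% of all genes lower) and 11 others. Leaving out an array gave 1033 to 4952 called genes, 0 to 40 replication genes and 1 to 39 others, against 2999, 20 and 26 on all arrays. The dim filter called 26 of the 40 replication genes it kept, against 16.3% of 11409 genes lower. Normalization again, centring, averaged probe sets and an intensity trend called 18, 18, 20 and 25 replication genes, against 7.88%, 8.12%, 8.20% and 8.92% of all genes lower. The cause of these shifts was not tested. Same-numbered arrays did not deviate together (r = -0.1, -0.102 and -0.0275 across genes), so the numbers were not taken as pairs. The fit with the replicate block called 2067 genes, 6 replication genes (5.74% of all genes lower) and 10 others. Gmnn, Mcm2, Cdc45, Pola2, Pold3 and Tyms kept their calls there. Dim signal limits Gmnn and Orc1, which the filter removed. Gins1 passed the filter but lay below the array median in L1CAM replicates 2 and 3.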

Other observations

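DNA polymerases outside the replication fork were measured as a further list. Of 13 repair and mitochondrial polymerase genes 5 fell and 0 rose (6 and 2 at an unadjusted p under 0.05), with a median of -0.14. The share that fell was 38.5%, against 8.19% of all genes. Over all 19938 genes, 2806 were lower and 2982 higher at an unadjusted p under 0.05 by limma. The count that fell was 6 without L1CAM replicate 1 and 1 or 2 without any other array. Rev3l, the catalytic subunit of the translesion polymerase zeta, read 8.90, 8.78 and 8.82 in L1CAM replicates 1, 2 and 3, against 9.32, 9.32 and 9.27 in control replicates 1, 2 and 3. It fell by 0.47 (SE 0.06, adjusted p = 0.00257 by limma), and its call held whichever array was left out. In Rev3l replicate 1 was 0.40 below the control mean (-0.40), close to replicates 2 and 3 (-0.52 and -0.48). Polq, the polymerase theta of end joining, fell by 0.73 (SE 0.20, adjusted p = 0.0499), and Polh, the translesion polymerase eta, by 0.42 (SE 0.09, adjusted p = 0.0188). Both were called in at most 2 of the 6 fits with an array left out.

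Of 18 regulators of the G1/S transition, 7 fell (38.9%, against 8.19% of all genes) and 1 rose. The largest falls were those of E2f8, a repressive E2F factor (-1.55, SE 0.33, adjusted p = 0.0201), and of the cyclins Ccne2 (-1.50, SE 0.39, adjusted p = 0.0415) and Ccne1 (-1.47, SE 0.38, adjusted p = 0.0401). E2f4, an E2F factor known from resting cells, rose by 0.28 (SE 0.07, adjusted p = 0.0392). E2f8, Ccne2, Ccne1 and E2f4 were each called in 1 of the 6 fits with an array left out. Cdc25a, a phosphatase that activates cyclin-dependent kinases, named after its values were seen, fell by 0.63 (SE 0.10, adjusted p = 0.00797), and its call held in all 6 of these fits. The count of regulators that fell was 14 without L1CAM replicate 1 and 1 without any other array (9 to 12 at an unadjusted p under 0.05 by limma).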
